A study of Mus musculus with 6 samples.

Results

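The genes of the BCL-2 survival proteins and of the BAX/BAK effectors were examined in control and senescent mouse adult fibroblasts (MAFs). The members were the rows of the count table named *Bcl2*, *Bcl2l1*, *Bcl2l2*, *Mcl1* and *Bcl2a1b*, the survival genes, and *Bax*, *Bak1* and *Bok*, the effectors. All 8 were found among the 43346 genes of the table, and 7 of them had enough counts to be tested. MAFs are primary cells grown out of ear tissue. The mice were adult females of the strain C57BL6/J. Their exact age, their number and any pooling are not given in the sources used here. Control cells (3 samples) were sham irradiated, and senescent cells (3 samples) received 20 Gy of X-rays and were cultured for 21 more days. All cells were kept at 3% oxygen and used between passages 3 and 8. In both groups, 100 nM dexamethasone was given for 2 hours to synchronize the circadian clocks, and RNA was collected 12 hours later, so that every value also follows a glucocorticoid pulse and describes a single time point.

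Mitochondrial apoptosis begins when BAX or BAK oligomerize and form pores in the outer mitochondrial membrane, through which cytochrome c escapes and activates caspases. BCL-2, BCL-XL (*Bcl2l1*), BCL-W (*Bcl2l2*), MCL-1 and A1 (*Bcl2a1b* and its paralogues) bind the effectors and hold them in check, and BH3-only proteins such as NOXA, PUMA and BIM occupy or neutralize the survival proteins. Senescent fibroblasts are known for resistance to apoptosis and for sensitivity to navitoclax, a senolytic drug that binds BCL-2, BCL-XL and BCL-W but not MCL-1. RNA-seq counts measure the transcripts of whole genes, and do not separate the long and short forms of *Bcl2l1* or *Mcl1*, or protein from RNA.

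The 250 bases before the RefSeq start sites of *Bcl2*, the member that rose most, *Bok*, the member that fell most, and *Bax*, whose values overlapped between the groups, are shown first. They are given 5′ to 3′ on the strand of the gene, in build GRCm38, with a motif match in capitals. *Bcl2* (minus strand) is chr1:106714291-106714540, *Bok* (plus strand) is chr1:93685325-93685574 and *Bax* (minus strand) is chr7:45466899-45467148.
Bcl2: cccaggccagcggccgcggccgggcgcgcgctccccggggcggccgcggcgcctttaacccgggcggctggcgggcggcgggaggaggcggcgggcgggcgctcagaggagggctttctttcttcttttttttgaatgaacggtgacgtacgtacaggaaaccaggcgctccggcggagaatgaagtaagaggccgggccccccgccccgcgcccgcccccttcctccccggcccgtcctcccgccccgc
Bok: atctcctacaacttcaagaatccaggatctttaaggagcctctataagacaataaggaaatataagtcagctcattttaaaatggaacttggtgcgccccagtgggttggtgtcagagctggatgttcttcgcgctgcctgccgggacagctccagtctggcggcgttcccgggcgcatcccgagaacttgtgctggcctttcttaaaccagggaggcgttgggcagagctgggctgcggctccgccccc
Bax: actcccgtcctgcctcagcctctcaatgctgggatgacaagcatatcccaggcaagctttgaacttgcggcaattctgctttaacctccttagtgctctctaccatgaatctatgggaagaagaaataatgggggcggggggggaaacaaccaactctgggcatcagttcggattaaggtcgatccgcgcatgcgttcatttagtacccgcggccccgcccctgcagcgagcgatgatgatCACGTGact

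The motifs searched were the E-box CACGTG, which BMAL1 binds, and the AP-1 sites TGACTCA and TGAGTCA, which are each other's reverse complement, so that both strands were covered. All 8 members were matched to 10 RefSeq windows of 250 bases before and 50 bases after a start site, 3 of them for *Bcl2l1*. The *Bax* window held 2 E-boxes, with first bases at positions -9 and 36 from the start site, and the first of them is the run in capitals above. No other member window held CACGTG, and none held an AP-1 site. Among all 32851 windows of this length, 7.15% held an E-box and 5.20% an AP-1 site. The windows also differed in composition. The *Bcl2* sequence had 74.8% G and C with 36 CpG dinucleotides, *Bok* 55.2% with 12 and *Bax* 54.0% with 14, against medians of 52.4% and 6 over all promoters. A match or its absence describes these letters and says nothing of binding.

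The libraries held between 50288454 and 82229553 counts, and all replicate pairs differed by more than sampling noise. Senescent replicate 3 stood apart from the other senescent libraries. The median squared difference between its counts and theirs was 12.7 and 16.3 times the value that chance gives, against 2.14 between senescent replicates 1 and 2 and up to 4.63 between control libraries. Its difference from the other senescent libraries followed the G and C content of the transcripts. Its median log2 difference was 0.32 in the tenth of genes with the lowest GC content and -0.57 in the tenth with the highest, across 12869 genes. For control replicate 1 against the other control libraries, these values were 0.09 and -0.20. Values without this library are given beside the results that it moves. Markers of senescence moved with the labels. *Cdkn1a*, which encodes the cell cycle inhibitor p21, changed by 2.33 on the log2 scale, *Cdkn2a* (the p16 gene) by 1.90, *Mki67* (Ki-67) by -5.94 and *Lmnb1* (lamin B1) by -3.55, with edgeR adjusted p-values of at most 0.000398. The *Cdkn2a* counts cover the whole gene and do not single out the p16 transcript. Of 10 fibroblast markers, all were tested, 3 were higher, 5 lower and 2 not called. *Dcn* (decorin) changed by 3.50 and *Col1a1* (type I collagen) by -2.54 on the log2 scale, so the markers moved in both directions. Their summed level was 63764 to 65730 CPM in control and 47958 to 53450 CPM in senescent cells, most of it *Fn1* (fibronectin), which was not called.

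Between control and senescent cells, 4 of the 7 tested members rose and 2 fell in the quasi-likelihood test of edgeR, with p-values adjusted by Benjamini-Hochberg over 17589 genes and called under 0.05. All of the higher members were survival genes and both of the lower members were effectors. Over all tested genes, 36.2% were higher and 34.1% lower by the same rule, and 70.3% were called in either direction, so that being called is common in this comparison and the count of members alone does not set them apart. The values of the groups did not overlap in the 6 called members, and over all tested genes this was the case for 38.4% with senescent cells higher and 37.0% with senescent cells lower, 75.3% in all. With the fold change limit of the study's methods, a fold over 2 at an unadjusted p under 0.05, *Bcl2* was the only member that was higher and *Bok* the only member that was lower, against 17.8% and 12.3% of all tested genes. With the same fold limit at an adjusted p under 0.05, these shares were 17.7% and 12.3%, and the same 2 members passed. Values below are CPM, the counts of a gene relative to all counts of its library, after TMM scaling, which adjusts for library size and composition. In bulk samples, a change in the share of cells that express a gene and a change in RNA per cell cannot be told apart, and separate cultures or animals behind the replicates are not named, so p-values measure the spread between these samples.

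**Figure D1:**
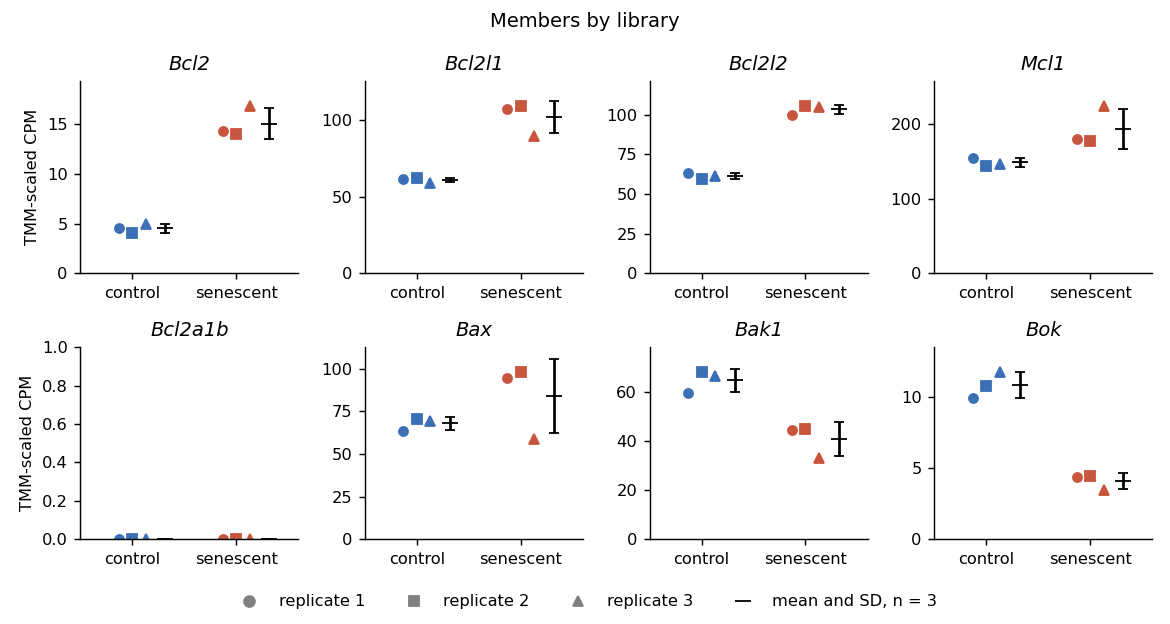
TMM-scaled CPM (vertical axes, each from 0) of the 8 members in the 3 control (blue) and 3 senescent (red) libraries, with symbols for the replicate number and black marks for the mean and SD. The groups are separate in *Bcl2*, *Bcl2l1*, *Bcl2l2*, *Mcl1*, *Bak1* and *Bok*, *Bax* overlaps through senescent replicate 3, and *Bcl2a1b* has 0 counts throughout.

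*Bcl2* (ENSMUSG00000057329, chromosome 1 of mm10 from 106538178 to 106714274) encodes the founding survival protein of the family. It was at 4.59, 4.08 and 4.92 CPM in control replicates 1, 2 and 3 and at 14.24, 14.02 and 16.78 CPM in senescent replicates 1, 2 and 3. Every senescent library was above every control library, and the means were 4.53 ± 0.424 and 15.0 ± 1.53 CPM (SD, n = 3 per group). On the log2 scale the increase was 1.73 ± 0.11 (SE), or 3.32-fold (adjusted p = 4.95e-06, edgeR). Of all tested genes, 16.0% had a larger absolute log2 fold change. Across the alternative settings, the log2 fold change lay between 1.56 and 1.81, and it was 1.65 without senescent replicate 3.

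*Bcl2l1* (ENSMUSG00000007659, chromosome 2 from 152780668 to 152831728) encodes BCL-XL, which guards the outer mitochondrial membrane against BAX and BAK. Its control values were 61.2, 61.8 and 59.1 CPM, and its senescent values 107, 109 and 89.5 CPM. Senescent replicate 3 was the lowest of the senescent libraries and still lay above all control libraries. It rose by 0.74 ± 0.08 (SE) on the log2 scale, or 1.68-fold (adjusted p = 9.95e-05, edgeR), and by 0.84 when senescent replicate 3 was left out.

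*Bcl2l2* (ENSMUSG00000089682, chromosome 14 from 54883377 to 54888234), which encodes BCL-W, rose by a similar amount. It was at 63.0, 59.8 and 61.4 CPM in control and at 100, 105 and 105 CPM in senescent cells, the smallest relative spread of any member among the senescent libraries. This was a rise of 0.75 ± 0.05 (SE) on the log2 scale, or 1.69-fold (adjusted p = 8.21e-06, edgeR). *Gm20521*, a gene model on the same strand, shares 13.3% of the exon bases of *Bcl2l2*. It did not pass the test, with means of 70.0 ± 2.19 CPM (control) and 64.9 ± 2.75 CPM (senescent; SD of 3 libraries).

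*Mcl1* (ENSMUSG00000038612, chromosome 3 from 95658721 to 95663176) encodes a short-lived survival protein that restrains BAK in particular. It had the smallest increase of the called members. Its values were 155, 144 and 146 CPM in control and 179, 177 and 223 CPM in senescent cells. The groups did not overlap, and senescent replicate 3 was well above the other senescent libraries. *Mcl1* thus rose by 0.38 ± 0.10 (SE) on the log2 scale, or 1.30-fold (adjusted p = 0.00832, edgeR), and leaving out senescent replicate 3 gave 0.27 (adjusted p = 1.49e-05, edgeR).

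*Bcl2a1b* (ENSMUSG00000089929, chromosome 9 from 89199209 to 89207827) encodes A1, a survival protein best known from hematopoietic cells. It had 0 counts in all 6 libraries, which allows up to 3 counts or between 0.0355 and 0.0613 CPM per library, counting error alone considered. The mouse genome carries paralogues, of which *Bcl2a1a* and *Bcl2a1d* share 100-base windows with *Bcl2a1b* letter for letter and *Bcl2a1c* shares none. *Bcl2a1a* and *Bcl2a1c* also had 0 counts in every library, and *Bcl2a1d* had 0 in the control libraries and 5, 9 and 1 in senescent replicates 1, 2 and 3. Of the 100-base windows of the *Bcl2a1b* transcript, 56.8% recur letter for letter in *Bcl2a1a*, *Bcl2a1d* or *Gm29094*, a model on the same strand that contains 49.1% of its exon bases, and 43.2% occur in no other annotated transcript. The treatment of reads that match several genes is not given in the sources used here, so a count of 0 covers mainly the part of the gene that is its own. *Gm29094* itself fell, with means of 2.81 ± 0.217 CPM (control) and 1.58 ± 0.311 CPM (senescent; SD of 3 libraries). Counts per gene do not show whether its reads came from the bases shared with *Bcl2a1b*.

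*Bax* (ENSMUSG00000003873, chromosome 7 from 45461695 to 45466898) encodes the effector that moves from the cytosol to mitochondria and is a classical target of p53. It was at 63.4, 70.7 and 69.5 CPM in control and at 94.5, 98.0 and 58.9 CPM in senescent cells. Senescent replicates 1 and 2 lay above all control libraries and senescent replicate 3 below all of them. Its log2 fold change of 0.30 ± 0.18 (SE) did not pass the test (adjusted p = 0.160, edgeR). Without senescent replicate 3, *Bax* was higher by 0.51 ± 0.05 (SE) on the log2 scale, or 1.43-fold (adjusted p = 5.68e-08, edgeR). Leaving out any other library gave log2 fold changes from 0.18 to 0.33 that did not pass. With an offset for GC content, chosen after seeing the data, all 6 libraries gave 0.49 ± 0.05 (SE) (adjusted p = 3.46e-06, edgeR).

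*Bak1* (ENSMUSG00000057789, chromosome 17 from 27019810 to 27029009) encodes the effector that resides on the mitochondrial membrane. In contrast to *Bax*, it fell. It was at 59.7, 68.3 and 66.9 CPM in control and at 44.8, 45.2 and 33.2 CPM in senescent cells, with all senescent libraries below all control libraries. Its log2 fold change was -0.66 ± 0.12 (SE), a 1.58-fold decrease (adjusted p = 0.00171, edgeR), or -0.52 when senescent replicate 3 was left out. *Ggnbp1* overlaps it on the opposite strand over 18.2% of its exon bases. *Ggnbp1* did not pass the test, with means of 17.9 ± 0.644 CPM (control) and 16.9 ± 1.03 CPM (senescent; SD of 3 libraries).

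*Bok* (ENSMUSG00000026278, chromosome 1 from 93685660 to 93695764) encodes a further effector, which is found mainly at the endoplasmic reticulum and is bound weakly by the survival proteins. It was at 9.94, 10.8 and 11.8 CPM in control and at 4.38, 4.48 and 3.47 CPM in senescent cells. No senescent library reached the lowest control library. This gave a log2 fold change of -1.40 ± 0.12 (SE), a 2.64-fold decrease (adjusted p = 2.79e-05, edgeR), and 20.8% of all tested genes had a larger absolute log2 fold change. For *Bok*, the log2 fold change was -1.28 without senescent replicate 3 and -1.14 with the GC offset.

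**Figure D2:**
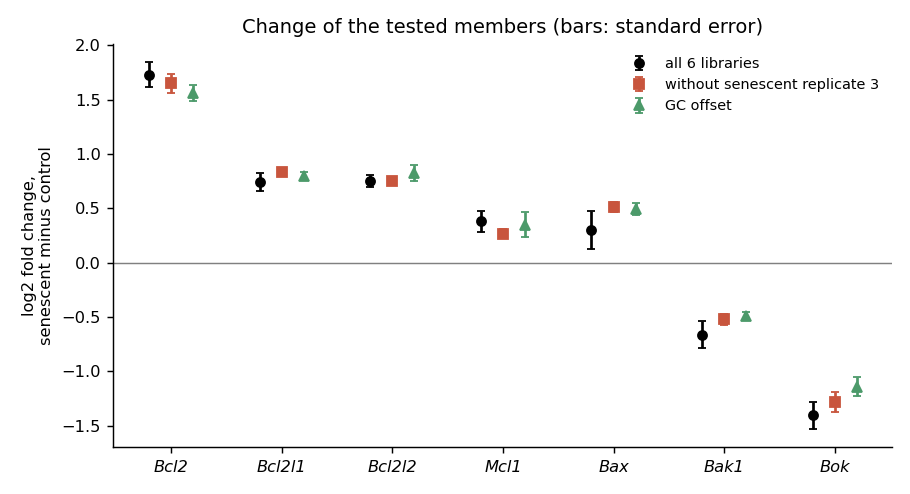
Log2 fold change of the 7 tested members (vertical axis, senescent minus control, bars for the standard error) with all libraries, without senescent replicate 3 and with the GC offset. *Bax* moves from 0.30 to 0.51 and 0.49, and the other members keep their side of 0.

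The departure of senescent replicate 3 was uneven among the members. Relative to the mean of the other senescent libraries, it was 0.71 lower on the log2 scale in *Bax*, 0.44 lower in *Bak1*, 0.35 lower in *Bok* and 0.27 lower in *Bcl2l1*. It was 0.25 higher in *Bcl2* and 0.33 higher in *Mcl1*, and it differed by 0.03 in *Bcl2l2*. The transcripts of *Bax*, *Bak1* and *Bok* had 59.0%, 57.3% and 61.8% G and C, and those of *Bcl2* and *Mcl1* 45.7% and 51.2%. *Bcl2l1* and *Bcl2l2* lay between them, with 53.9% and 54.2%. The effectors, which had the highest GC content of the members, were thus all lower in the library in which GC-rich genes were lower. What set this library apart was not tested.

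**Figure D3:**
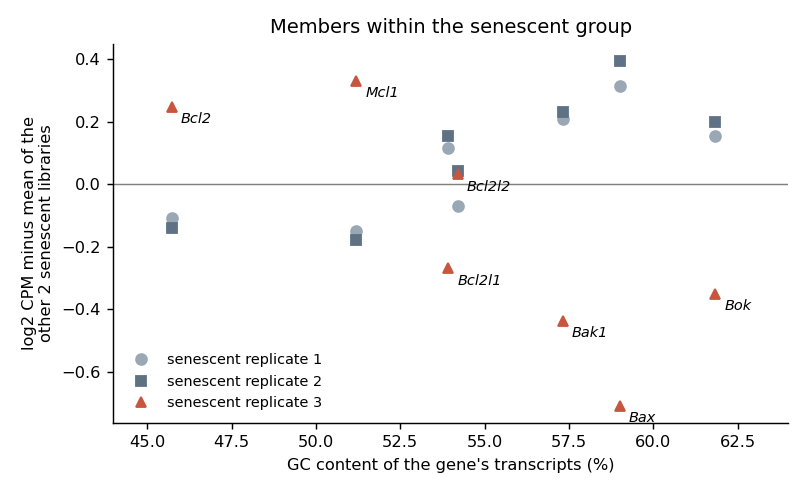
Log2 CPM of each tested member in a senescent library minus the mean of the other senescent libraries (vertical axis) against the GC content of its transcripts in percent (horizontal axis), with gene names beside senescent replicate 3. In that library, *Bcl2* and *Mcl1* lie above 0 and *Bax*, *Bak1*, *Bok* and *Bcl2l1* below it. The other libraries lie on the opposite side of 0 for these genes by construction, because the values of a gene sum to 0 and that library departs most.

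The balance between members was also taken within each library, as the log2 ratio of the counts of 2 genes, which needs no scaling between libraries. Such a ratio still carries the GC trend of a library where the 2 genes differ in GC content. For 8 pairs listed before the ratios were computed, an exact permutation test of 3 against 3 samples cannot give a p below 0.1. This smallest value was reached in 7 of the 8 pairs (two-sided exact permutation p = 0.1, adjusted p = 0.114 over the 8 pairs), and none passed 0.05. It means only that the groups did not overlap, which was so for 75.3% of all tested genes taken singly. The share for ratios of other gene pairs was not obtained. Every pair contains *Bax* or *Bak1*, so the ratios are not independent and restate the changes of the members.

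*Bak1* and *Bax* had nearly equal counts in control cells, with 0.941, 0.966 and 0.962 counts of *Bak1* per count of *Bax*. In senescent cells there were 0.474, 0.462 and 0.564. The groups did not overlap, and the ratio fell by 0.94 on the log2 scale, or by 1.03 without senescent replicate 3. *Bok* fell further against *Bax*, from 0.157, 0.153 and 0.169 to 0.0465, 0.0458 and 0.0591 counts per count of *Bax*, a log2 difference of -1.67, or -1.79 without senescent replicate 3.

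Among survival genes, *Bcl2l1* against *Bak1* gave the steadiest rise, from 1.03, 0.905 and 0.883 in control to 2.39, 2.40 and 2.69 in senescent cells, a log2 difference of 1.41, or 1.36 without senescent replicate 3. *Mcl1* against *Bak1* rose from 2.59, 2.11 and 2.19 to 3.995, 3.903 and 6.729, a log2 difference of 1.04, or of 0.79 without senescent replicate 3. Against *Bax*, the picture depended on senescent replicate 3. The *Bcl2*/*Bax* ratio was 0.0725, 0.0578 and 0.0710 in control and 0.151, 0.143 and 0.285 in senescent cells, a log2 difference of 1.46, or 1.14 without that library. For *Bcl2l1*/*Bax* the log2 difference was 0.47, and 0.33 without it. For *Bcl2l2*/*Bax* it was 0.48, and 0.24 without it. *Mcl1*/*Bax* overlapped between the groups, with 2.44, 2.04 and 2.10 in control and 1.894, 1.802 and 3.797 in senescent cells (exact permutation p = 1, two-sided). Its log2 difference was 0.10 with all libraries and -0.24 without senescent replicate 3.

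Levels of different genes were compared as CPM per kilobase, with the gene lengths of the deposited table. In control cells, the order from high to low was *Bax* at 78.1 ± 4.51, *Mcl1* at 42.6 ± 1.64, *Bak1* at 27.0 ± 1.92, *Bcl2l2* at 13.8 ± 0.365, *Bcl2l1* at 13.2 ± 0.315, *Bok* at 6.11 ± 0.515 and *Bcl2* at 0.495 ± 0.0463 CPM per kilobase (SD, n = 3). *Bcl2l2* and *Bcl2l1* overlapped and were not distinguished. With these lengths the other neighbours did not overlap. In senescent cells, *Bax* was at 96.4 ± 24.9, *Mcl1* at 55.4 ± 7.58, *Bcl2l2* at 23.2 ± 0.660, *Bcl2l1* at 22.2 ± 2.33, *Bak1* at 17.1 ± 2.83, *Bok* at 2.32 ± 0.314 and *Bcl2* at 1.64 ± 0.167 CPM per kilobase (SD, n = 3). The senescent mean of *Bax* was 110.8 without senescent replicate 3. The first rank of *Bax* rests on the deposited length of 869 bases, which is shorter than its exons combined in GENCODE (1576 bases) and than its longest transcript (1100 bases). With all exons combined, a length chosen after seeing the data, *Bax* was at 40.3, 44.9 and 44.1 in control and *Mcl1* at 45.3, 42.2 and 42.8 CPM per kilobase, so that they overlapped. In senescent cells they also overlapped, with 59.97, 62.17 and 37.35 for *Bax* and 52.4, 51.7 and 65.4 for *Mcl1*. With the longest transcript, *Bax* was above *Mcl1* in every library except senescent replicate 3, where it was at 53.5 against 65.4. *Bax* and *Mcl1* were therefore not ranked. With longest transcripts, *Bcl2l1* stood above *Bcl2l2*, with means of 23.6 and 16.1 in control and 39.6 and 27.1 CPM per kilobase in senescent cells. With each of these lengths, *Bak1* stood above both *Bcl2l1* and *Bcl2l2* in every control library and below both in every senescent library. *Bcl2* remained the least abundant member with counts in every library despite its increase.

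**Figure D4:**
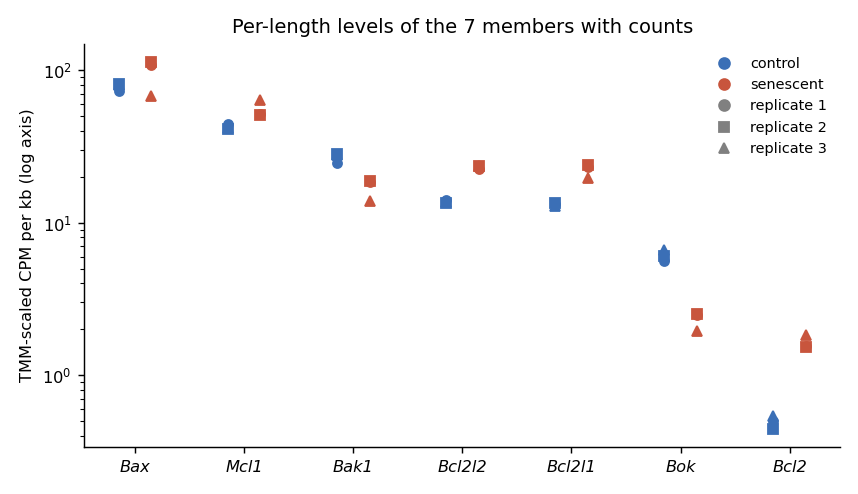
Levels of the 7 members with counts in TMM-scaled CPM per kilobase of the deposited gene length (vertical log axis), ordered by their control mean, in control (blue) and senescent (red) libraries. *Bak1* falls below *Bcl2l1* and *Bcl2l2* in the senescent libraries, and *Bcl2* stays lowest.

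On this per-length scale, *Mcl1* made up 61.4%, 60.2% and 60.7% of the sum of the survival genes in control and 52.1%, 50.9% and 58.8% in senescent cells, a senescent mean of 53.9% with and 51.5% without senescent replicate 3. The share of *Bcl2l2* was 19.6 ± 0.218% and 22.7 ± 1.08% and that of *Bcl2* 0.706 ± 0.0653% and 1.598 ± 0.0742% (SD, n = 3 per group). The share of *Bcl2l1* overlapped between the groups, with 18.4%, 19.6% and 18.6% in control and 23.6%, 23.8% and 17.9% in senescent cells. Senescent replicate 3 was below every control library, and the senescent mean was 21.8% with it and 23.7% without it. Among the effectors, *Bax* made up 70.6%, 70.3% and 69.9% of the sum in control and 83.8%, 84.1% and 81.1% in senescent cells. This share was higher in every senescent library, senescent replicate 3 included. The sum of the survival genes divided by that of the effectors was 0.700, 0.593 and 0.604 in control and 0.760, 0.743 and 1.31 in senescent cells. Without senescent replicate 3, its senescent mean was 0.751 in place of 0.936. No test was made on these sums, and they change with the lengths assumed.

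The genes most like the members with the largest changes were sought by the Euclidean distance of centred log2 CPM over the 6 libraries, among 12957 other genes whose mean count was 100 or more. *Stc1*, *Coq10b* and *Arhgap6* were nearest to *Bcl2*, at distances of 0.109, 0.136 and 0.138, with log2 fold changes from 1.75 to 1.77. *Mad1l1*, *Boc* and *Isoc2b* were nearest to *Bok*, at 0.0840, 0.110 and 0.124, with log2 fold changes from -1.41 to -1.37. With 2 groups, this likeness mostly reflects the group difference.

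The other genes of the pathway are given beside the members, with a median log2 fold change of 0.0085 over all tested genes as the background. For the counts of called genes in the pathway and marker lists, the background is 36.2% higher and 34.1% lower over all tested genes. BH3-only genes, the sensors that act on the members, moved in both directions. Of 8, 6 were tested, 2 rose and 4 fell, with a median of -0.61. *Pmaip1*, which encodes the MCL-1 and A1 ligand NOXA, averaged 1.19 ± 0.171 CPM (control) and 51.2 ± 6.08 CPM (senescent; SD of 3 libraries), which is 5.42 higher on the log2 scale. *Bid*, which is cleaved to an activator of BAX and BAK, rose by 0.97 on the log2 scale. *Bmf* fell by 4.002, from 28.4 ± 0.700 CPM to 1.78 ± 0.184 CPM, and *Bcl2l11*, which encodes BIM, fell by 0.48. *Bik* and *Hrk* were below the filter.

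Of 10 other BCL-2 family genes, 5 were tested, 1 rose and 4 fell, with a median of -0.60. *Bcl2l15* averaged 0.169 ± 0.0227 CPM (control) and 3.43 ± 0.447 CPM (senescent; SD of 3 libraries), which is 4.32 higher on the log2 scale. *Bnip3* and *Bcl2l13*, which encode mitophagy receptors, changed by -1.03 and -0.60. *Bcl2a1a*, *Bcl2a1c*, *Bcl2a1d*, *Bcl2l10* and *Bcl2l14* were below the filter.

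Downstream of the pore, 1 of 12 genes for cytochrome c release, the apoptosome and caspases rose, 9 fell and 2 did not pass, with a median of -0.80. *Cycs*, which encodes cytochrome c itself, rose by 0.67 on the log2 scale. The initiator caspase gene *Casp9* averaged 30.3 ± 0.487 CPM (control) and 13.2 ± 0.903 CPM (senescent; SD of 3 libraries), a log2 change of -1.20, and *Casp6* changed by -1.002. Of 5 inhibitors of apoptosis, *Birc3*, which encodes cIAP2, rose by 0.47, *Birc5* (survivin, which also serves in mitosis) fell by 4.95 and *Birc2* fell by 0.25, and *Xiap* and *Birc6* did not pass. Without senescent replicate 3, 4 of these 5 genes were lower, and in each fit without another single library 1 was. Lower calls over all genes numbered 6643 without senescent replicate 3 and between 5284 and 5726 in those other fits.

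Among 14 genes whose products bind the members or govern their turnover, 6 rose, 3 fell and 5 did not pass, with a median of 0.13. *Hspa9*, a mitochondrial chaperone, and *Fbxw7*, part of a ubiquitin ligase that targets MCL-1, changed by 0.84 and 0.68 on the log2 scale. *Itpr1* and *Itpr2*, which encode calcium channels of the endoplasmic reticulum, a family known to bind BOK, changed by -0.93 and -0.43. The called genes in these lists had edgeR adjusted p-values of at most 0.0417.

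**Figure D5:**
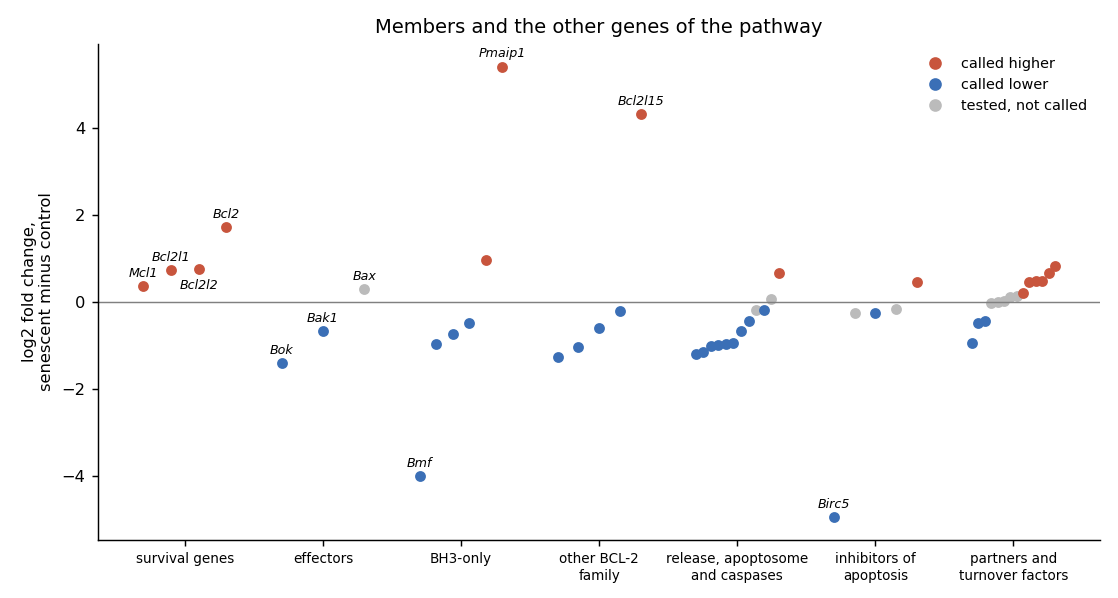
Log2 fold change (vertical axis, senescent minus control) of every tested member and pathway gene, grouped by list, in red where called higher, in blue where called lower and in grey where not called. The 4 tested survival genes lie above 0, and 9 of 12 genes for release, apoptosome and caspases are called lower. Over all tested genes, 36.2% are called higher and 34.1% lower.

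Markers of other cell types also moved between the groups. Of 8 leukocyte markers, whose cells express *Bcl2a1* genes, 6 were tested and all 6 were higher in senescent cells. Their summed level was between 8.30 and 9.05 CPM in control and between 18.8 and 21.8 CPM in senescent libraries. *Ptprc* had 12, 7 and 9 counts in control and 80, 95 and 128 in senescent libraries, and *Adgre1* and *Fcgr1* were below the filter, with at most 10 counts in any library. Of 6 chondrocyte markers, all 6 were lower, with sums between 4729 and 5257 CPM in control and between 336 and 419 CPM in senescent libraries. Of 5 endothelial markers, 4 were higher, with sums of 2.43 to 2.86 and 7.40 to 8.08 CPM. Of 6 keratinocyte markers, 3 were tested and 1 was higher, with sums of 3.23 to 4.13 and 4.73 to 6.08 CPM. Of 5 skeletal muscle markers, 2 were tested and 1 was higher, with sums of 15.5 to 20.9 and 15.0 to 27.7 CPM. Of 6 Schwann cell and melanocyte markers, 3 were tested and 2 were lower, with sums of 4.10 to 4.43 and 3.13 to 3.73 CPM. The part of these markers in the changes of the members was not tested.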

How the data were processed

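RNA-seq of 3 control and 3 senescent samples was analysed. Per the labels, 200 ng of RNA entered a stranded mRNA kit. According to the study's methods, paired reads were mapped to mm10 with STAR and counted on genes with Subread in the MAPRSeq pipeline. The authors deposited raw counts per gene without normalization, together with a gene length in bases. How strand and multi-mapping reads were handled is not given in the sources used here. Members were chosen, and lists and tests written, with earlier results of these data known. The 8 count ratios were listed before ratios were computed.

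Genes were kept with filterByExpr (17589 genes), scaled by TMM and compared with the robust quasi-likelihood test of edgeR 4.0.16 in R 4.3.3, which modelled group alone (two-sided, Benjamini-Hochberg across all tested genes). Ratios had 0.5 added to each count. Alternatives were RLE or library size scaling, no filter beyond 1 count, at least 10 counts in every library, DESeq2 1.42.0, edgeR's exact test, a replicate term, each library left out, stricter calls, a pseudocount of 1 and the length of the longest transcript. A GC offset (lowess, span 0.3) and the length of all exons combined were added after seeing the data. Exon overlaps, GC content and shared 100-base windows came from GENCODE M21 (GRCm38), promoters from RefSeq (GRCm38.p6). Of the table's genes, 42462 were found in GENCODE M21. Methods were tested on simulated data. Named genes were all members, up to 2 higher and 2 lower genes of each list by smallest p, genes below the filter, the paralogues, the nearest genes, and the markers. Genes that overlap members were added after their values were seen. Total counts of 50288454 to 82229553 limit a count of 0 to 3 counts, which covers counting error only, since reads carried no molecular identifiers.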

Additional observations from a re-analysis of the deposited data

How the results depend on the processing

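*Bcl2*, *Bcl2l1*, *Bcl2l2*, *Mcl1*, *Bak1* and *Bok* kept their direction and their call in all 14 alternative settings, and leaving out any single library kept 4 or 5 members higher and 2 lower. Over all genes, 5930 to 7052 were higher and 5284 to 6643 lower in the fits without a single library. *Bax* was called in 2 settings, without senescent replicate 3 and with the GC offset (log2 fold change 0.49), and its log2 fold changes without a single library ranged from 0.18 to 0.51. Calls over all genes were also more common in these 2 settings. Without senescent replicate 3, 7052 genes were higher and 6643 lower. With the GC offset 6424 were higher and 7441 lower, against 6360 and 6005 with the main settings. With a fold limit of 2, 1 member was higher and 1 lower, and over all genes 3134 were higher and 2166 lower at an unadjusted p under 0.05, or 3121 and 2159 at an adjusted p under 0.05. The *Mcl1*/*Bax* log2 difference turned to -0.24 without senescent replicate 3, with a range of -0.24 to 0.29 over the libraries left out. With the longest transcript as length, *Mcl1* held 51.8% of the survival sum in control and 45.0% in senescent cells, *Bcl2l1* 28.2% and 31.7%, *Bax* held 64.1% and 78.9% of the effector sum, and the survival sum over the effector sum was 0.873 and 1.37. With all exons combined as length, added after seeing the data, *Bax* held 56.7% and 73.0% of the effector sum, and the survival sum over the effector sum was 0.937 and 1.51. Both senescent means of this ratio include senescent replicate 3. With the deposited lengths, that library was at 1.31, against 0.760 and 0.743 in senescent replicates 1 and 2. Inhibitors of apoptosis called lower numbered 1 with RLE scaling, library size scaling, at least 10 counts, DESeq2 or the replicate block, 4 with the GC offset, and from 1 to 4 with a library left out. BH3-only genes called lower numbered 2 without a filter and from 2 to 4 with a library left out, and those called higher 4 without a filter. Other BCL-2 family genes called higher numbered 3 without a filter and 0 with at least 10 counts. Release, apoptosome and caspase genes called higher numbered 2 with the GC offset and 1 to 2 with a library left out. Partners and turnover factors called lower numbered 7 with the GC offset, a setting in which 7441 of all genes were lower, against 6005 with the main settings. The causes of these changes were not tested. A stricter or absent filter changes which genes are tested. The BH3-only genes and inhibitors of apoptosis that lost a lower call under such a filter were still tested.

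The sources used here do not say whether same-numbered samples are paired. Correlations between the deviations of same-numbered libraries were -0.10, 0.10 and -0.09. These deviations also hold the GC trend of each library, so the correlations cannot decide whether samples share a culture or an animal. With the replicate block, 5964 genes were higher and 5660 lower, the same 6 members were called, and *Bax* had a log2 fold change of 0.27. The 4 *Bcl2a1* genes summed to 0, 0 and 0 counts in control and 5, 9 and 1 in senescent libraries and stayed below the filter, so no fold change was obtained. No difference was detectable for *Bcl2a1b*, for which depth and the assignment of reads shared with other genes cannot be told apart. With 3 samples per group, single-value permutation tests cannot pass 0.05.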
